A study of Mus musculus with 57 samples.

Results

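Mouse embryonic stem cells (ESCs) that had switched on the reporters of both Sox1 and FOXA2 by day 6 (D6) of retinoic acid (RA) treatment were compared with cells that had switched on either reporter alone. The 9 libraries were taken by their labels from the 57 of the series: 3 of Sox1+FOXA2+ cells, 3 of Sox1-FOXA2+ cells and 3 of Sox1+FOXA2- cells, all sorted straight from the culture and none replated. All came from the Sox1-EGFP/FoxA2mCherry line, in which EGFP stands in place of 1 Sox1 allele and mCherry is fused to FOXA2. The culture was N2B27 medium with 1 uM RA for 6 days, and the populations differed in the sorting gate. The 3 D6 libraries of Sox1-FOXA2- cells, from the same line, medium and day, joined the fit, which thus held 12 sorted libraries. Each library is bulk RNA-seq of amplified RNA from a small sorted sample, with values as raw counts per gene.

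SOX1 is a transcription factor of early neuroectoderm, and FOXA2 is a forkhead factor that marks endoderm and is also made in the node, the notochord and the floor plate of the neural tube. Parietal endoderm lays down a thick basement membrane of laminin and type IV collagen, while visceral endoderm takes up maternal protein through an endocytic receptor complex. RA directs ESCs towards neural cells and, depending on the culture, towards extraembryonic endoderm. The comparison asks whether cells positive for both markers hold the programmes of both single-positive populations, and which genes set them apart.

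The Sox1+FOXA2+ libraries held 30519808, 21995880 and 48829405 counts in replicates 1, 2 and 3. Those of Sox1-FOXA2+ cells held 36694379, 31592963 and 26156124, and those of Sox1+FOXA2- cells 33459130, 22857168 and 35982572. At least 1 count was found for 23286, 14458 and 24155 genes in the Sox1+FOXA2+ libraries, so that replicate 2 detected the fewest genes of the 12 libraries. The single-positive libraries detected 16459 to 27832 genes.

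Foxa2 transcripts did not set all 3 Sox1+FOXA2+ libraries apart from Sox1+FOXA2- cells. Foxa2 had 0, 480 and 110 counts in Sox1+FOXA2+ replicates 1, 2 and 3, or 0, 22.9 and 2.00 CPM (counts scaled to library size by TMM, and not by gene length). The Sox1-FOXA2+ libraries had 2650, 1354 and 1806 counts (96.6, 50.3 and 70.5 CPM), and the Sox1+FOXA2- libraries 142, 92 and 22 (3.77, 3.70 and 0.556 CPM). Replicate 2 thus stood between the single-positive populations, replicate 3 within the range of Sox1+FOXA2- cells, and replicate 1 below it. A count of 0 among 30519808 allows up to 3 counts, for counting error only. The library labelled Sox1+FOXA2+ replicate 1 is therefore described on its own below, and many of the results are given with and without it. Sox1 transcripts could not be checked, because the gene lies wholly inside Sox1ot and is listed at 0 in every library. The fluorescent proteins were measured by the sort and not in these counts. For the FOXA2 gate, the study reports that mCherry was still well correlated with FOXA2 protein at D6. It also reports more FoxA2 mRNA over time in sorted FOXA2mCherry+ populations than in FOXA2- ones. EGFP, by the study's account, was no longer well correlated with SOX1 protein at D6. The study names a potential decoupling of this reporter, and noise from a signal close to background. Sox1+ thus stands for the reporter here. Because the libraries are bulk samples, cells that co-express both programmes cannot be told apart from a mixture of cells, nor fewer cells of a type from less RNA per cell.

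Against Sox1+FOXA2- cells, the genes called included Gata6, Lama1, Sparc and Dab2, which endoderm expresses, while no secreted product of visceral endoderm was called. A gene was called when its p from the quasi-likelihood test of edgeR, adjusted by the Benjamini-Hochberg method, was under 0.05. Of 24203 genes tested, 12 were called (0.0496%), and all 12 were higher in Sox1+FOXA2+ cells. No gene was called lower by edgeR, which gave an unadjusted p under 0.05 for 627 lower and 446 higher genes, together fewer than the 1210 that chance gives, and DESeq2's Wald test called 131 higher and 107 lower genes. Other edgeR fits did call lower genes: 4 with no filter on low counts, 3 with all 57 libraries, 1 with the replicate block and 2 without replicate 3. The 12 genes were Lama1, Sparc, Epas1, Dab2, Atp1b1, Gata6, Lrpap1, F3, Tfpi, Sat1, Hs3st1 and Ankrd33b. Their log2 fold changes ran from 2.74 to 5.43, and each was higher in 3 of 3 Sox1+FOXA2+ libraries than in any Sox1+FOXA2- library. Without replicate 1 the count was 62 of 26067 genes (0.238%), of which 60 were higher and 2 lower, and all 12 genes were called again. Without replicate 2 it was 6. With all 57 libraries in the fit 6 of the 12 were called (Lama1, Sparc, Epas1, Atp1b1, Lrpap1 and Tfpi), and with only the groups compared 1 was (Epas1).

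Gata6, which encodes a GATA factor that directs cells to primitive endoderm, stood at 52.1, 56.5 and 161 CPM in Sox1+FOXA2+ replicates 1, 2 and 3. It stood at 3.13, 9.82 and 8.79 CPM in Sox1+FOXA2- cells and at 531, 401 and 256 CPM in Sox1-FOXA2+ cells. Every double-positive library was thus above all 3 Sox1+FOXA2- libraries and below all 3 Sox1-FOXA2+ libraries. The log2 fold change against Sox1+FOXA2- was 3.64 ± 0.54 (SE; edgeR's quasi-likelihood test, Benjamini-Hochberg adjusted p = 7.9e-04, and 0.0141 with replicate number as a block). The call held in 6 of 6 fits that each left out 1 library, but not with all 57 libraries (edgeR, adjusted p = 0.420) or with only the groups compared (0.166). Gata4, its partner in the same lineage, was not called (edgeR, adjusted p = 0.0845), with 37.9, 195 and 308 CPM in Sox1+FOXA2+ cells against 9.02, 0.805 and 4.14 in Sox1+FOXA2- cells. Without replicate 1 it was called, with a log2 fold change of 5.73 ± 0.78 (edgeR, adjusted p = 0.0114).

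Gata6 was the single call among the 9 endoderm transcription factors tested, and 6 of the 9 were higher in all 3 Sox1+FOXA2+ libraries than in any Sox1+FOXA2- library, as 3.13% of all genes were. The median log2 fold change of the list was 3.41 against Sox1+FOXA2- cells, beside 0 over all genes, and 3.81 without replicate 1. Against Sox1-FOXA2+ cells it was -0.73 (-0.54 without replicate 1), beside 0.25 over all genes. Foxa2 is not on this list. Gata4, Gata6, Sox7 and Sox17 of the list are among the genes the study names, as is Foxa2, so their direction is not independent evidence.

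Lama1, the laminin chain that starts the assembly of embryonic basement membranes (ENSMUSG00000032796.8, chromosome 17, 67697259 to 67822647, GRCm38), had 532, 1547 and 5416 CPM in Sox1+FOXA2+ replicates 1, 2 and 3. It had 65.9, 52.7 and 55.5 CPM in Sox1+FOXA2- cells and 21690, 9821 and 7763 CPM in Sox1-FOXA2+ cells. The 3 populations did not overlap, and replicate 3 lay closest to the Sox1-FOXA2+ libraries. The log2 fold change against Sox1+FOXA2- was 5.43 ± 0.77 (SE; edgeR's quasi-likelihood test, Benjamini-Hochberg adjusted p = 0.0282, 0.406 with the replicate block, and 0.0508 with size factors). The call was lost without Sox1+FOXA2+ replicate 2 or any 1 of the Sox1+FOXA2- libraries, with adjusted p from 0.274 to 0.666.

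Sparc, a collagen-binding matrix protein (ENSMUSG00000018593.13, chromosome 11, 55394500 to 55423183), had 369, 2824 and 3257 CPM in Sox1+FOXA2+ cells. It had 163, 92.4 and 83.7 CPM in Sox1+FOXA2- cells and 10320, 6342 and 5250 in Sox1-FOXA2+ cells. Replicate 1 was low and replicates 2 and 3 were high, and no library overlapped another population. The log2 fold change against Sox1+FOXA2- was 4.25 ± 0.65 (edgeR, adjusted p = 0.0282, 0.589 with the block, 0.0503 with size factors, and 4.7e-13 without replicate 1). The call was lost without any 1 of the other 5 libraries compared, with adjusted p from 0.0768 to 0.585.

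These were 2 of the 14 basement membrane genes, which were laminins, type IV collagens, nidogens, perlecan, Sparc, the chaperone Serpinh1 and the enzymes P4ha1, P4ha2, Plod1 and Plod2. Of the 14, 8 were higher in all 3 Sox1+FOXA2+ libraries than in Sox1+FOXA2- cells, as 3.13% of all genes were, while 0.0496% of all genes were called. The median log2 fold change of the list was 2.03 against Sox1+FOXA2- cells (2.41 without replicate 1, with 4 calls) and -2.16 against Sox1-FOXA2+ cells (-1.60 without replicate 1). Lamb1, another gene the study names, had 403, 775 and 2936 CPM in Sox1+FOXA2+ cells, 139, 66.0 and 148 in Sox1+FOXA2- cells and 10660, 4896 and 4570 in Sox1-FOXA2+ cells. It was not called against Sox1+FOXA2- or Sox1-FOXA2+ cells (edgeR, adjusted p = 0.120 and 0.237). Col4a1, the main chain of type IV collagen, had 352, 837 and 4337 CPM beside 74.3, 16.0 and 69.5 in Sox1+FOXA2- cells and 21250, 7144 and 6563 in Sox1-FOXA2+ cells, and was not called in the same pair of comparisons (edgeR, adjusted p = 0.466 and 0.351). For both genes the double-positive libraries lay between the single-positive populations with no overlap, and their own spread was wide.

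The endocytic receptor complex of yolk-sac endoderm gave 2 calls from 5 genes, the adaptor Dab2 and the receptor-associated chaperone Lrpap1, where 0.0496% of all genes were called. Of the 5, 4 were higher in every Sox1+FOXA2+ library than in Sox1+FOXA2- cells, as 3.13% of all genes were. The median log2 fold change of the 5 was 3.54 against Sox1+FOXA2- cells (3.99 without replicate 1, with 3 calls) and -0.99 against Sox1-FOXA2+ cells (-0.45 without replicate 1). Dab2 (ENSMUSG00000022150.16, chromosome 15, 6299788 to 6440712), which the study also names, had 206, 1530 and 661 CPM in Sox1+FOXA2+ cells, 48.1, 67.6 and 36.3 in Sox1+FOXA2- cells and 1815, 1869 and 1077 in Sox1-FOXA2+ cells. Replicate 2 was inside the Sox1-FOXA2+ range and the other 2 libraries were below it. Its log2 fold change against Sox1+FOXA2- was 3.98 ± 0.59 (edgeR, adjusted p = 0.0102, and 0.334 with the block). The call was lost without Sox1+FOXA2+ replicate 3 or any 1 of the Sox1+FOXA2- libraries, with adjusted p from 0.0589 to 0.164. Lrpap1 had 85.4, 470 and 580 CPM beside 23.1, 32.5 and 42.2 in Sox1+FOXA2- cells, a log2 fold change of 3.54 ± 0.53 (edgeR, adjusted p = 0.00432, 0.161 with the block, and 0.274 without replicate 2). Cubn, which encodes the receptor cubilin, had 135, 849 and 1068 CPM beside 19.7, 35.4 and 15.1. It was called without replicate 1 (edgeR, adjusted p = 1.9e-05) but not with it (0.0588).

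Tfpi, the tissue factor pathway inhibitor that parietal endoderm makes in quantity (ENSMUSG00000027082.15, chromosome 2, 84432855 to 84476775), had 107, 479 and 324 CPM in Sox1+FOXA2+ cells, 32.1, 30.1 and 22.6 in Sox1+FOXA2- cells and 709, 451 and 480 in Sox1-FOXA2+ cells. All 3 double-positive libraries were above Sox1+FOXA2- cells, and replicate 2 reached the Sox1-FOXA2+ range. The log2 fold change was 3.42 ± 0.45 (edgeR, adjusted p = 9.7e-05, and 0.0888 with only the groups compared), and the call held in 6 of 6 fits that left out 1 library. F3, tissue factor itself, had 29.6, 130 and 101 CPM beside 8.17, 2.58 and 12.2 (log2 fold change 3.50 ± 0.59; edgeR, adjusted p = 0.00866, and 0.151 without replicate 2). Tfpi was the single call among 10 parietal endoderm products, where 0.0496% of all genes were called. Of the 10, 6 were higher in all 3 libraries than in Sox1+FOXA2- cells, as 3.13% of all genes were. That list had a median log2 fold change of 2.82 against Sox1+FOXA2- cells (3.23 without replicate 1, with 2 calls) and -1.48 against Sox1-FOXA2+ cells (-1.04 without replicate 1).

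Epas1, which encodes the hypoxia-inducible factor HIF-2alpha (ENSMUSG00000024140.10, chromosome 17, 86753700 to 86833410), was called against both single-positive populations. It had 176, 682 and 540 CPM in Sox1+FOXA2+ cells, 31.9, 24.1 and 26.7 in Sox1+FOXA2- cells and 2094, 2417 and 1373 in Sox1-FOXA2+ cells. No library of the 3 populations overlapped another population. The log2 fold change was 4.08 ± 0.43 against Sox1+FOXA2- (edgeR, adjusted p = 1.5e-06, called in 6 of 6 fits that left out 1 library) and -2.07 ± 0.40 against Sox1-FOXA2+ (adjusted p = 0.0207). The call against Sox1-FOXA2+ cells was not made once Sox1+FOXA2+ replicate 1 (edgeR, adjusted p = 0.0585) or Sox1-FOXA2+ replicate 2 (0.0532) was left out, nor with all 57 libraries (0.112), without robust estimation (0.0861) or with only the groups compared (0.508). Both comparisons share the Sox1+FOXA2+ libraries, so the pair of values is not 2 independent results.

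The other 4 genes called against Sox1+FOXA2- cells were the sodium pump subunit Atp1b1, the polyamine-degrading enzyme Sat1, the heparan sulfate sulfotransferase Hs3st1 and Ankrd33b. Atp1b1 had 37.0, 191 and 122 CPM in Sox1+FOXA2+ cells beside 7.37, 3.06 and 16.7 (edgeR, adjusted p = 0.0199, 0.220 with the block, and 0.265 without replicate 2). Sat1 had 17.3, 174 and 75.1 CPM beside 5.20, 11.02 and 12.8 (edgeR, adjusted p = 0.0144, and 0.151 without replicate 2). In each of the 4, replicate 1 was the lowest and replicate 2 the highest of the double-positive libraries. Hs3st1 had 37.1, 147 and 77.8 CPM beside 11.8, 10.4 and 14.2 (edgeR, adjusted p = 0.00844, and 0.0511 without Sox1+FOXA2- replicate 2). Ankrd33b had 54.8, 235 and 138 CPM beside 22.7, 27.8 and 13.9 (edgeR, adjusted p = 0.0121, 0.0712 with the block, and 0.0964 without replicate 2). Calls were also lost without Sox1+FOXA2- replicate 1 for Atp1b1, Sat1 and Ankrd33b (adjusted p from 0.0521 to 0.0826), without Sox1+FOXA2+ replicate 3 for Atp1b1 (0.0879), without Sox1+FOXA2- replicate 2 for Sat1 (0.0691) and without Sox1+FOXA2- replicate 3 for Ankrd33b (0.0724).

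**Figure D1:**
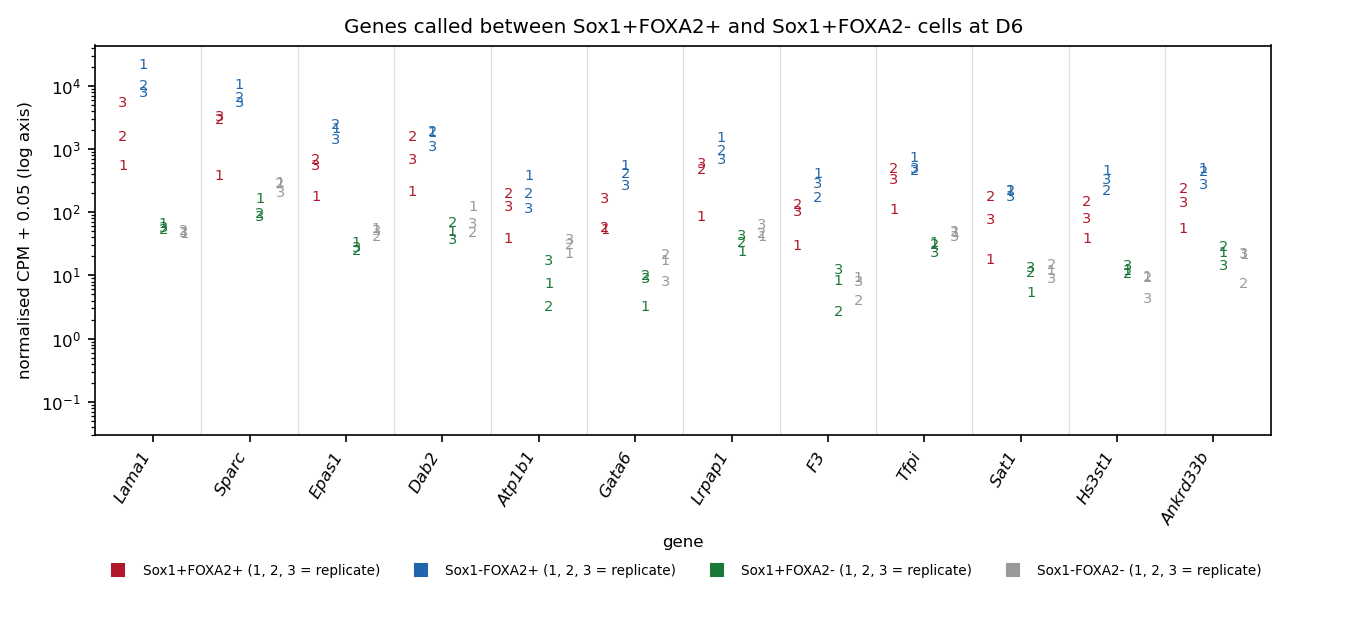
Normalised CPM plus 0.05 on a log axis at D6 for the 12 genes of the comparison of Sox1+FOXA2+ libraries with Sox1+FOXA2- ones, where each digit is 1 library and gives its replicate number and each colour a population. In all 12 genes the 3 red digits (Sox1+FOXA2+) stand above the 3 green ones (Sox1+FOXA2-).

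Fabp3, Ctsl and Srgn were not among the 12 genes called against Sox1+FOXA2- cells, but were called when replicate 1 was left out. Fabp3, a fatty acid binding protein, had 362 and 533 CPM in replicates 2 and 3 and 23.7 in replicate 1, beside 20.2, 8.53 and 21.3 in Sox1+FOXA2- cells (log2 fold change without replicate 1 of 4.73 ± 0.41; edgeR, adjusted p = 1.3e-10). Ctsl, the lysosomal protease cathepsin L, had 637 and 379 CPM and 80.8 in replicate 1, beside 42.1, 13.8 and 34.4 (4.02 ± 0.48; edgeR, adjusted p = 4.8e-05). Srgn, the proteoglycan serglycin, had 264 and 321 CPM and 28.3 in replicate 1, beside 6.84, 3.70 and 11.3 (5.30 ± 0.50; edgeR, adjusted p = 1.6e-07). Replicate 1 was thus just above the Sox1+FOXA2- range for Fabp3 and further above it for Ctsl and Srgn. The 2 genes called lower were the histone gene Hist1h4a and Prtg, which encodes protogenin of early neural tissue. Prtg had 105 and 65.0 CPM in replicates 2 and 3, beside 567, 531 and 273 in Sox1+FOXA2- cells (-2.48 ± 0.43; edgeR, adjusted p = 8.8e-04), and 296 in replicate 1.

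Against Sox1-FOXA2+ cells, the calls held more genes that were higher in the Sox1+FOXA2+ libraries than lower ones, and the former included several that were at or close to 0 in Sox1-FOXA2+ cells. Of 24203 genes, 22 were called (0.0909%), 16 higher (0.0661%) and 6 lower (0.0248%), and in none of the 22 did the libraries of the compared populations overlap. At an unadjusted p under 0.05 there were 2251 higher and 1181 lower genes, and DESeq2's Wald test called 1331 higher and 256 lower. Scaling by DESeq2's size factors moved the median log2 fold change of all genes from 0.25 to 0.46 in this comparison and from 0 to 0.13 in that with Sox1+FOXA2- cells, and gave 19 higher and 2 lower calls here. Without replicate 1 the count was 10 of 26067 (0.0384%), all higher and all among the 22. Of the 22, edgeR called 9 without robust estimation, 10 with all 57 libraries and 0 with only the groups compared. Without replicate 2 it was 280 (158 higher and 122 lower), without replicate 3 it was 84 (36 higher and 48 lower), and without Sox1-FOXA2+ replicate 3 it was 208 (150 higher and 58 lower). The balance of directions thus turned without replicate 3, as it did with all 57 libraries in the fit (52 higher and 117 lower). With the replicate block it was nearly even, at 85 higher and 77 lower of 162 genes.

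The 6 lower genes were Serpinh1, P4hb, Vim, Slc16a1, Epas1 and Rassf3. Serpinh1, the collagen chaperone HSP47, had 169, 286 and 610 CPM in Sox1+FOXA2+ cells, 2716, 1361 and 1104 in Sox1-FOXA2+ cells and 165, 178 and 83.0 in Sox1+FOXA2- cells. P4hb, a subunit of the collagen prolyl hydroxylase, had 321, 437 and 949 CPM beside 2990, 1686 and 1395 in Sox1-FOXA2+ cells. All 3 double-positive libraries were below Sox1-FOXA2+ cells for both genes, replicate 3 closest to them. The log2 fold changes were -2.28 ± 0.45 for Serpinh1 (edgeR, adjusted p = 0.0353, and 0.181 with the block) and -1.83 ± 0.39 for P4hb (adjusted p = 0.0498). Vim, which encodes the intermediate filament vimentin, had 193, 216 and 176 CPM beside 707, 1008 and 476 in Sox1-FOXA2+ cells and 266, 284 and 137 in Sox1+FOXA2- cells (-1.90 ± 0.40; edgeR, adjusted p = 0.0498). The 3 double-positive libraries were close together here and lay with the Sox1+FOXA2- cells. None of the 6 was called by edgeR without replicate 1, with adjusted p from 0.0585 to 0.228, none without robust estimation (0.0861 to 0.133), none with only the groups compared (0.508 to 0.678), and none but Epas1 and Rassf3 with size factors (adjusted p = 0.0673 for the other 4). Further edgeR calls were lost without replicate 2 (Serpinh1, adjusted p = 0.114), replicate 3 (Vim, 0.0503), Sox1-FOXA2+ replicate 1 (Serpinh1, P4hb, Slc16a1 and Rassf3, 0.0693 to 0.202) and Sox1-FOXA2+ replicate 2 (Vim, Slc16a1, Epas1 and Rassf3, 0.0512 to 0.197).

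Serpinh1 was the single gene of the basement membrane list, which does not hold P4hb, to be called against Sox1-FOXA2+ cells, and 11 of the 14 were lower in all 3 Sox1+FOXA2+ libraries, as 6.88% of all genes were. The remaining endoderm lists had no call against Sox1-FOXA2+ cells by edgeR. Secreted products of visceral endoderm, 13 of 16 tested, had a median log2 fold change of -0.31 against Sox1-FOXA2+ cells and 0.96 against Sox1+FOXA2- cells (-0.47 and -0.16 without replicate 1), with 0 calls in either. Afp and Apoa1 were at 0 in Sox1+FOXA2+ replicates 1 and 2 and at 1.31 and 0.436 CPM in replicate 3. Apob had 2.80, 0 and 4.80 CPM, beside 10.6, 13.7 and 15.4 in Sox1-FOXA2+ cells. Epithelial genes had medians of -0.32 (-0.36 with genes at 0 in a group set to their bound) and 0.51 over 14 genes, also with 0 calls. Of the epithelial genes, the keratin Krt8 had 90.0, 210 and 146 CPM in Sox1+FOXA2+ cells, below the 338, 429 and 278 of Sox1-FOXA2+ cells and within the 31.2 to 133 of Sox1+FOXA2- cells only in replicate 1.

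Among the 16 higher genes were Zscan4c, Zscan4e, Zscan4f and Usp17le of the 2-cell-like state, in which ESCs transiently express genes of the cleaving embryo. These genes, and Gm5662 and Gm21761 with them, have near-identical copies in the genome, so that their own counts are uncertain. Zscan4f had 16.2, 16.2 and 4.31 CPM in Sox1+FOXA2+ cells, 33.4, 57.5 and 39.5 in Sox1+FOXA2- cells and 0 in all 3 Sox1-FOXA2+ libraries. The double-positive mean was at least 326-fold higher than a floor of 3 counts over the Sox1-FOXA2+ group (edgeR, adjusted p = 2.5e-04). Zscan4c had 12.7, 35.8 and 4.47 CPM beside 0, 0.0744 and 0 in Sox1-FOXA2+ cells and 27.3, 36.0 and 16.6 in Sox1+FOXA2- cells (edgeR, adjusted p = 2.5e-04). Both Sox1-positive populations thus had the transcripts, and so did Sox1-FOXA2- cells, with 24.4, 78.5 and 50.4 CPM of Zscan4c. Of 13 genes on the list of the 2-cell-like state, 12 were tested, 4 were called higher than in Sox1-FOXA2+ cells, and 8 of the 12 did not overlap, where 5.37% of all genes were higher in all 3 libraries. None of the 4 was called by edgeR with all 57 libraries (adjusted p from 0.0527 to 0.121) or with only the groups compared (0.508 to 0.678). The median log2 fold change was 9.21, or 7.62 with the genes at 0 set to their bound. Against Sox1+FOXA2- cells it was -0.67 (-1.54 without replicate 1) with 0 calls. There, 3 genes of the 12 were lower in all 3 libraries, as 6.12% of all genes were. Summed over the list, Sox1+FOXA2+ libraries had 238, 132 and 87.5 CPM, Sox1-FOXA2+ libraries 3.79, 3.61 and 3.28, Sox1+FOXA2- libraries 219, 302 and 205, and Sox1-FOXA2- libraries 133, 399 and 156.

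The remaining higher genes lie outside these families. Dusp27, an inactive phosphatase known from muscle (ENSMUSG00000026564.9, chromosome 1, 166098148 to 166127922), had 32.5, 34.1 and 47.8 CPM in Sox1+FOXA2+ cells, 0.437, 0 and 0.547 in Sox1-FOXA2+ cells and 35.3, 23.7 and 42.4 in Sox1+FOXA2- cells. The double-positive libraries overlapped the Sox1+FOXA2- ones and were above all 3 Sox1-FOXA2+ ones (log2 fold change 6.85 ± 0.96; edgeR, adjusted p = 2.5e-04), and Sox1-FOXA2- cells had 50.9, 42.7 and 79.3 CPM. Cpa6, a secreted carboxypeptidase, had 76.2, 84.0 and 64.7 CPM beside 4.30, 1.93 and 14.6 in Sox1-FOXA2+ cells and 45.6, 61.2 and 40.1 in Sox1+FOXA2- cells (3.43 ± 0.69; edgeR, adjusted p = 0.0311, and 0.0753 without replicate 1). Pard3b, a cell polarity gene, had 270, 265 and 178 CPM beside 45.7, 40.2 and 43.6 in Sox1-FOXA2+ cells and 138, 108 and 118 in Sox1+FOXA2- cells (2.47 ± 0.46; edgeR, adjusted p = 0.0177, and 0.0117 without replicate 1). For both genes all 3 double-positive libraries were the highest of the 9. Dpf3, Cadps, Klhl29, Lhfp and Erc2 had log2 fold changes from 2.38 to 2.93, and of these only Lhfp was called without replicate 1 (edgeR, adjusted p = 0.0353). Klhl29 and Erc2 were not called with size factors (edgeR, adjusted p = 0.0673). Ankrd31 had 83.5, 8.92 and 30.7 CPM beside 2.04, 0.929 and 0.547 in Sox1-FOXA2+ cells and 31.5, 21.3 and 61.2 in Sox1+FOXA2- cells (5.13 ± 1.00; edgeR, adjusted p = 0.0243, 0.173 without replicate 1, and 0.0532 without Sox1-FOXA2+ replicate 2). Klhl29, Dpf3, Cadps and Erc2 were also lost without Sox1-FOXA2+ replicate 1 (edgeR, adjusted p from 0.0820 to 0.128) or replicate 2 (0.106 to 0.170), and Klhl29 without Sox1+FOXA2+ replicate 2 (0.0501) or Sox1-FOXA2+ replicate 3 (0.0614), so that it was called in 1 of 6 such fits. By edgeR, Cpa6 was also lost without Sox1-FOXA2+ replicates 1 or 2 (adjusted p = 0.0854 and 0.123), Pard3b without Sox1-FOXA2+ replicate 2 (0.0512) and Lhfp without Sox1-FOXA2+ replicate 1 (0.0820).

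**Figure D2:**
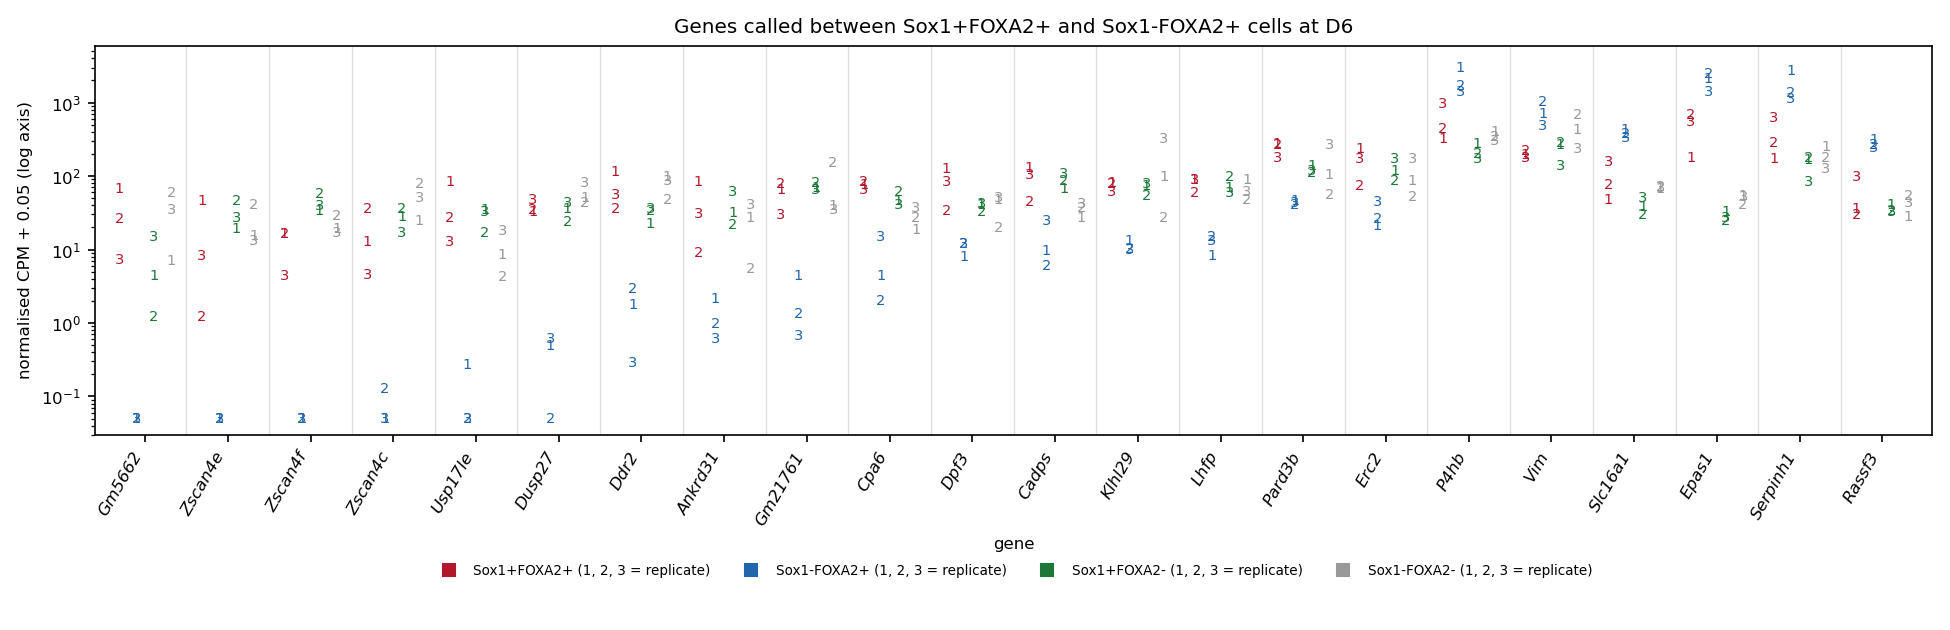
Normalised CPM plus 0.05 on a log axis at D6 for the 22 genes of the comparison of Sox1+FOXA2+ libraries with Sox1-FOXA2+ ones, where each digit is 1 library and gives its replicate number and each colour a population. The red digits (Sox1+FOXA2+) stand above the blue ones (Sox1-FOXA2+) in 16 genes and below them in 6.

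The 16 higher genes were often long. Their median span on the genome was 150 kb, and 9 of the 16 (56.3%), none of them Zscan4c, Zscan4e, Zscan4f, Usp17le, Gm5662 or Gm21761, were over 100 kb, beside a median of 19.0 kb and 11.5% over all genes tested. The lower genes had a median span of 16.4 kb. In the libraries themselves, genes over 100 kb took 32.3%, 18.3% and 30.3% of the counts outside mitochondrial genes in Sox1+FOXA2+ replicates 1, 2 and 3. The shares were 24.1%, 18.6% and 23.7% in Sox1-FOXA2+ cells and 25.9%, 21.7% and 27.1% in Sox1+FOXA2- cells. Replicates 1 and 3 were thus above, and replicate 2 below, every library of the single-positive populations. Sox1-FOXA2- cells had 23.3%, 15.8% and 27.6%, so that replicate 2 had the lowest share in each population. The part of these shares in the calls was not tested.

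Set against the mean of the log2 levels of both single-positive populations, which is lower than the level of a mixture of the cells where these differ widely, 5 genes were called (0.0207%), all higher. No gene was called lower, where an unadjusted p under 0.05 was found for 659 lower and 1331 higher genes and DESeq2's Wald test called 116 lower and 346 higher. Lower genes were called by edgeR in other fits: 7, beside 6 higher, with the replicate block, 2, beside 0 higher, with all 57 libraries, 6, beside 39 higher, with no filter on low counts, and 4, beside 10 higher, without replicate 3. Of the 5 genes, edgeR called 2 without robust estimation (Gm5662 and Ddr2) and 0 with all 57 libraries or with only the groups compared. The 5 genes were Gm5662, Usp17le, Zscan4c, Dusp27 and Ddr2, and in all but Ddr2 the double-positive libraries overlapped those of Sox1+FOXA2- cells. Ddr2, a receptor tyrosine kinase for fibrillar collagen (ENSMUSG00000026674.9, chromosome 1, 169972307 to 170110762), had 114, 35.7 and 54.7 CPM in Sox1+FOXA2+ cells. It had 1.71, 2.83 and 0.234 CPM in Sox1-FOXA2+ cells, 22.1, 33.1 and 35.0 in Sox1+FOXA2- cells and 97.5, 47.2 and 86.6 in Sox1-FOXA2- cells. The 3 double-positive libraries were above all 6 single-positive ones, by a narrow margin for replicate 2. Replicate 1 was also above all 3 Sox1-FOXA2- libraries, replicate 3 above 1 of them and replicate 2 below all 3. The log2 fold change was 3.30 ± 0.54 (edgeR, adjusted p = 0.00709, and 0.0463 without replicate 1). Without replicate 1 the count was 14 of 26067 (0.0537%), all higher, and Usp17le was no longer called (edgeR, adjusted p = 0.623). The count was 16, 14, 8, 9 and 12 without Sox1+FOXA2+ replicates 2 and 3 and Sox1-FOXA2+ replicates 1, 2 and 3, and 2, 2 and 3 without Sox1+FOXA2- replicates 1, 2 and 3. Dusp27, Usp17le and Zscan4c were each lost without 1 or more of the Sox1+FOXA2- libraries (adjusted p from 0.0616 to 0.176), and Zscan4c also without replicate 2 (0.0863).

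Genes were also counted by rank alone, and whether their shares exceed those of chance was not tested. In this way 217 genes (0.897%) were higher in all 3 Sox1+FOXA2+ libraries than in all 6 single-positive libraries and 348 (1.44%) were lower. Of the former, 57 spanned over 100 kb (26.3%), and of the latter 5.17% did. Among the genes named from the lists, Col3a1 and Wnt5a were in the first set. Col3a1, the fibrillar collagen of mesenchyme, had 133, 25.5 and 182 CPM in Sox1+FOXA2+ cells, 1.82, 0 and 0.156 in Sox1-FOXA2+ cells, 6.95, 2.74 and 2.02 in Sox1+FOXA2- cells and 321, 106 and 452 in Sox1-FOXA2- cells. It was called against neither (edgeR, adjusted p = 0.181 and 1), and replicates 1 and 3 lay within the Sox1-FOXA2- range, with replicate 2 below it. Dusp1 and Id2 were in the second set.

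The neural genes of the lists gave no call in either comparison. Of 22 neural progenitor genes 18 were tested, with a median log2 fold change of 1.66 against Sox1-FOXA2+ cells and -0.50 against Sox1+FOXA2- cells (1.55 and -0.375 without replicate 1). In each, 3 did not overlap: higher in the first, as 5.37% of all genes were in all 3 libraries, and lower in the second, as 6.12% were. Sox1 and Sox2, which lie inside other genes, are listed at 0 in every library. Msi1, an RNA-binding protein of neural progenitors, had 26.1, 110 and 25.7 CPM in Sox1+FOXA2+ cells, 14.3, 5.65 and 9.76 in Sox1-FOXA2+ cells and 73.7, 94.2 and 56.0 in Sox1+FOXA2- cells. Meis2, a homeobox gene induced by RA, had 163, 189 and 327 CPM, beside 96.8, 107 and 85.4 in Sox1-FOXA2+ cells and 273, 213 and 370 in Sox1+FOXA2- cells. Both were above Sox1-FOXA2+ cells in all 3 libraries, and neither was called (edgeR, adjusted p = 0.128 and 0.235). Neuronal differentiation genes, 12 of 15 tested, had medians of 1.49 (1.33 at the bounds) and -0.62 (1.17 and -0.84 without replicate 1). Genes of the floor plate, the p3 domain and the hedgehog pathway, where FOXA2 and neural factors are made together, had medians of -0.20 (0.11 with size factors, -0.53 without replicate 1) and -0.37 over 11 of 12 genes, and Shh had 0 counts in all 3 Sox1+FOXA2+ libraries. Nes, Meis2, Sox9, Cpe, Nr2f2 and Pax6 are genes that the study names.

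The 3 Sox1+FOXA2+ libraries differed from each other more than a single description allows. Ranked over genes, the mean Spearman correlation of replicate 1 was 0.729 with Sox1-FOXA2+ libraries, 0.809 with Sox1+FOXA2- libraries and 0.759 with the other double-positive libraries. The values were 0.755, 0.757 and 0.725 for replicate 2 and 0.8002, 0.844 and 0.785 for replicate 3. These are across genes, which are not independent replicates, and each library correlated better with Sox1+FOXA2- libraries than with the others of its own population. The same held for Sox1-FOXA2- libraries (0.773, 0.771 and 0.827 for replicates 1, 2 and 3), with which replicate 2 correlated best. Replicates 2 and 3, but not replicate 1, also correlated better with Sox1-FOXA2+ libraries than with the others of their own population.

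The library labelled Sox1+FOXA2+ replicate 1 had 0 Foxa2 counts, and it was above every Sox1+FOXA2- library in the 12 genes called against those cells, calls in which it took part. For Serpinh1 (169 CPM) it was within the Sox1+FOXA2- range. Among genes whose 3 Sox1-FOXA2+ libraries all exceeded the 3 Sox1+FOXA2- ones, its median level was 13.2% of the Sox1-FOXA2+ mean for 5 endoderm transcription factors, 9.31% for 14 basement membrane genes and 11.6% for 4 genes of the endocytic complex. The level of Sox1+FOXA2- cells is not subtracted from such percentages. Summed over the 14 basement membrane genes, those cells had 914 to 1436 CPM beside 3269 in replicate 1. Replicate 1 had the lowest level of the 3 double-positive libraries in all 12 genes called against Sox1+FOXA2- cells. Nes, the intermediate filament nestin of neural progenitors, stood at 92.0 CPM beside 139, 124 and 33.5 in Sox1+FOXA2- cells, and Rbfox3, the neuronal RNA-binding protein NeuN, at 220 CPM beside 93.9, 144 and 76.1. Rbfox3 was not typical of its list, since the medians were 77.6% of the Sox1+FOXA2- mean for 9 neuronal genes, the lowest at 4.21%, and 57.2% for 11 neural progenitor genes. Sox10, a neural crest factor, had 20.4 CPM here and 0 in replicates 2 and 3, and Lef1, a nuclear effector of WNT signalling, had 219 CPM beside 0.477 and 40.2 in the others. Ribosomal protein genes took 1.68% of the counts of replicate 1, the lowest share of the 12 libraries (2.46% to 4.22% in the rest). The TMM factor of replicate 1, 1.22, was the highest, and the part of either in its levels was not tested.

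Replicate 2 joined high endocytic genes with low basement membrane genes and high levels of Nes and Pax6, while the summed neural progenitor genes, at 734, 857 and 969 CPM in replicates 1, 2 and 3, were below every Sox1+FOXA2- library (1054 to 1383) in all 3. Its median level was 54.7% of the Sox1-FOXA2+ mean for the 4 endocytic genes, with Dab2 at 96.4%. For the 14 basement membrane genes it was 12.9%, from 0% to 38.7%, with Nid1 at 0.0917%. For the 5 endoderm transcription factors the median was 43.9%, from 14.3% (Gata6) to 181%. Nes stood at 220 CPM, above the 139, 124 and 33.5 of Sox1+FOXA2- cells, and Pax6, a homeobox gene of neural progenitors, at 91.9 CPM beside 8.35 and 2.36 in replicates 1 and 3. Crabp1, which binds RA in the cytoplasm, had 366 CPM beside 27.4 and 12.7 in replicates 1 and 3, which was within the 338, 585 and 75.2 of Sox1+FOXA2- cells. For the 9 neuronal genes whose Sox1+FOXA2- libraries all exceeded the Sox1-FOXA2+ ones, the median was 2.07% of the Sox1+FOXA2- mean, where replicates 1 and 3 had 77.6% and 82.6%. This library also had the fewest genes with a count and the lowest depth of the 12, whose part in the low values was not tested. Replicate 2 likewise had the fewest genes in Sox1-FOXA2+ (16459), Sox1+FOXA2- (21114) and Sox1-FOXA2- cells (18319). The mitochondrial share of counts, 6.52% here, was also the lowest in replicate 2 of each population. Mki67, a marker of cycling cells, stood at 1550 CPM beside 544 and 660 in replicates 1 and 3.

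In replicate 3 the medians were 41.5% of the Sox1-FOXA2+ mean for the endoderm transcription factors, 44.7% for the basement membrane genes, from 35.3% to 69.4%, and 53.7% for the endocytic genes. Its parietal endoderm products ran from 14.3% to 59.2% and its visceral endoderm products from 36.3% to 124%. The summed level of the 14 basement membrane genes was 24260 CPM, beside 3269 and 8780 in replicates 1 and 2, 35580 to 97850 in Sox1-FOXA2+ cells and 914 to 1436 in Sox1+FOXA2- cells. Its Foxa2 level of 2.00 CPM was 2.76% of the Sox1-FOXA2+ mean. Nes (11.2 CPM) and Pax6 (2.36 CPM) were below every Sox1+FOXA2- library, and neural progenitor genes had a median of 34.4% of the Sox1+FOXA2- mean, beside 57.2% and 66.3% in replicates 1 and 2. The pluripotency genes Zfp42 (174 CPM), Nanog (55.3 CPM) and Esrrb (103 CPM) were higher than in replicates 1 and 2, while Klf5 (228 CPM) was below the 339 CPM of replicate 2 and Pou5f1 (5.04 CPM) below both.

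**Figure D3:**
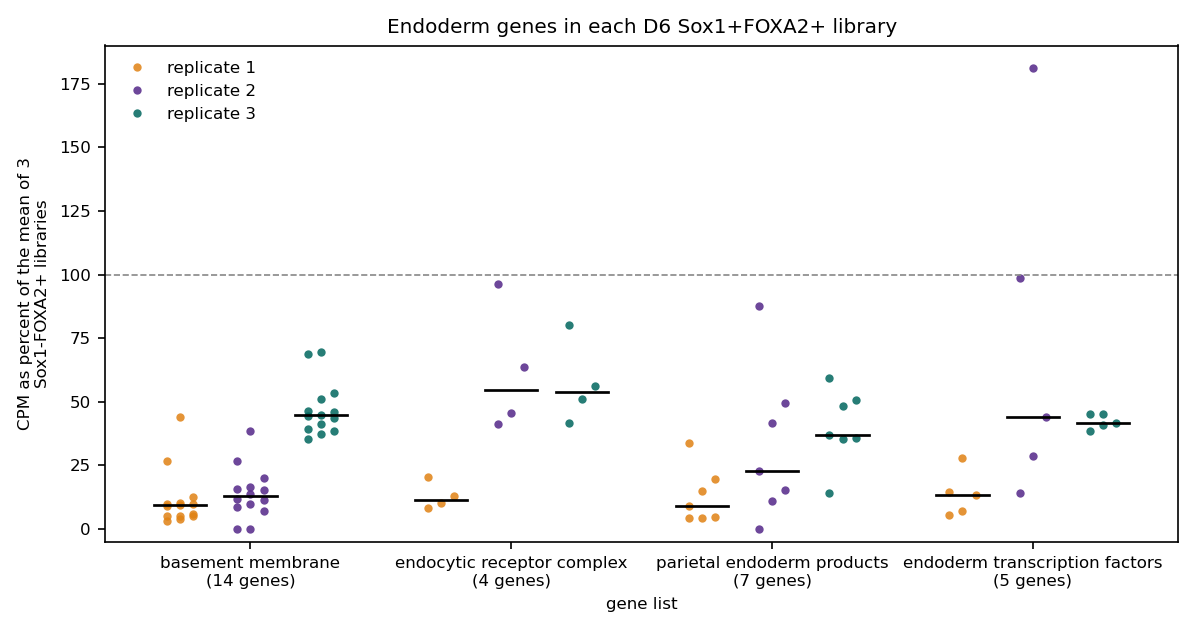
Level of single genes in each D6 Sox1+FOXA2+ library as a percentage of the mean of the 3 Sox1-FOXA2+ libraries, for genes of 4 endoderm lists whose Sox1-FOXA2+ libraries all exceeded the Sox1+FOXA2- ones. Points are genes, colours are replicates and bars are medians, which for basement membrane genes were 9.31%, 12.9% and 44.7% in replicates 1, 2 and 3. The level of Sox1+FOXA2- cells is not subtracted.

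Markers of other cell types were measured in the same libraries. Neural crest and mesenchyme genes, 13 of 14 tested with 0 calls by edgeR, had a median log2 fold change of 3.46 against Sox1-FOXA2+ cells (1.48 without replicate 1) and 0.66 against Sox1+FOXA2- cells (-0.26 without replicate 1). Their summed level was 327, 70.8 and 383 CPM in Sox1+FOXA2+ replicates 1, 2 and 3, beside 29.8 to 49.1 in Sox1-FOXA2+ cells, 78.4 to 117 in Sox1+FOXA2- cells and 376 to 776 in Sox1-FOXA2- cells. Replicates 1 and 3 were high, with 133 and 182 CPM of Col3a1 among it, replicate 2 was low, and Foxd3 was at 0 in every library. Pluripotency genes had medians of 1.20 and -0.29 (1.74 and -0.01 without replicate 1) over 14 genes with 0 calls, and 1 call (Klf5) against Sox1+FOXA2- cells without replicate 1. Mesendoderm genes had medians of 0.34 and 0.11 (1.09 and 0.67 without replicate 1) over 5 of 8 genes, and T (brachyury) had 1.40, 0 and 2.07 CPM. Genes of the node and notochord, where FOXA2 is also made, had medians of 3.41 and 2.02 (2.71 and 1.32 without replicate 1) over 7 genes with 0 calls, though only 4 of the 7 were above 0 against Sox1-FOXA2+ cells. Their summed level was 33.3, 6.68 and 46.5 CPM, which overlapped the 11.9, 23.4 and 55.4 CPM of Sox1-FOXA2+ cells, and Noto had 1.89, 0 and 7.49 CPM. Endothelial and blood genes had medians of 1.40 and 0.09 (-0.03 without replicate 1) over 7 of 8 genes, with 0 calls. The part of cells of these kinds in the results was not tested.

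The promoter windows of the genes called against Sox1+FOXA2- cells are shown because Gata6 was among them and GATA factors bind the letters GATAA. RefSeq windows (GRCm38.p6, 250 bases before to 50 after the start) were found for 9 of the 12 genes, 11 windows in all, and 4 windows (36.4%) held GATAA or its reverse complement TTATC, beside 25.4% of 32851 windows of all genes. For the genes called against Sox1-FOXA2+ cells, 16 of 22 were matched, and 3 of 16 windows (18.8%) held it. The forkhead letters TGTTTAC or GTAAACA were in 0 windows of either set, beside 3.65% of all. A match describes the letters and is not a bound site. Dab2 has a second window (chr15:6386498-6386797, plus strand) with 0 matches. Its window with matches (chr15:6299539-6299838, plus strand) and both windows of Tfpi (chr2:84476710-84477009 and chr2:84474125-84474424, minus strand) are given 5′ to 3′ with the motif in capitals.
Dab2: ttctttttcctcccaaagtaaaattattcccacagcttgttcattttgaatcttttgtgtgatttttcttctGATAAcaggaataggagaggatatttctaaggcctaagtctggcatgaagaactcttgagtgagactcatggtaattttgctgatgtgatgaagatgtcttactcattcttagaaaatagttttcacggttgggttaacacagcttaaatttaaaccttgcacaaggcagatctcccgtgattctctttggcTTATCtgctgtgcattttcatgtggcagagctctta
Tfpi, first: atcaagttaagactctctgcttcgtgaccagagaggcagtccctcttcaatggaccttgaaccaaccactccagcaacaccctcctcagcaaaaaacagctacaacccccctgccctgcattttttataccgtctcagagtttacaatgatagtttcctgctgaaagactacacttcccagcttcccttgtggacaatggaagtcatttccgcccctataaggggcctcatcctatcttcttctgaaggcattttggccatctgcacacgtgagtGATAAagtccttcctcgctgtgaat
Tfpi, second: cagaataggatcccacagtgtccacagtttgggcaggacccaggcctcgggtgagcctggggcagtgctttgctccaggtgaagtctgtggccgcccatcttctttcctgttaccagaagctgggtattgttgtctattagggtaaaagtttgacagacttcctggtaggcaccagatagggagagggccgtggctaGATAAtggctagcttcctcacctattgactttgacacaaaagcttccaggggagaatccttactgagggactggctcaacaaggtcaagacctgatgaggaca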

How the data were processed

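The authors aligned the reads with STAR to the GENCODE M21 mouse genome (GRCm38), counted them per gene with featureCounts and deposited raw counts without normalization. Tool versions, the strand setting and the treatment of multi-mapping reads were not given. Of the counts above 0, 80.6% were even, as when both mates of a pair are counted. The 12 sorted D6 libraries were fitted in R 4.3.3 with edgeR 4.0.16 (limma 3.58.1): filterByExpr by population (minimum count 10, minimum total 15), TMM scaling, and a quasi-likelihood fit with robust estimation and a prior count of 0.125, tested on both sides with Benjamini-Hochberg adjustment over all genes tested. Robust estimation was among the choices looked at after seeing the data, and the fit without it is given with the alternatives. DESeq2 1.42.0 was the other tool. An exact test of 3 libraries against 3 cannot give a p under 0.1. Replicate numbers were checked over 5000 genes: libraries of Sox1+FOXA2+ and Sox1+FOXA2- cells with the same number correlated at 0.106, 0.286 and 0.252, so a fit with replicate as a block is given where it ends a call. Genes were named from those called in a comparison, the 10 highest and 10 lowest of those called without Sox1+FOXA2+ replicate 1, the genes of the lists and the sorting markers Foxa2 and Sox1, and the rest of these are given as counts or medians. The genes and lists were chosen with earlier results of these data known. Of 1494 protein-coding genes lying wholly inside another gene, 91.2% had 0 counts in the series, beside 2.39% of 14067 that lie outside other genes.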

Additional observations from a re-analysis of the deposited data

How the results depend on the processing

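The number of genes called depended on the processing, and the cause was not tested. Against Sox1-FOXA2+, Sox1+FOXA2- and the mean of both, edgeR called 22, 12 and 5 genes, and 11, 24 and 3 without robust estimation, an alternative chosen after seeing the data. DESeq2's Wald test called 1587, 238 and 462, edgeR with no filter on low counts 280, 74 and 45, with all 57 libraries 169, 23 and 2, and with only the groups compared 0, 1 and 0 (1128, 579 and 1711 at an unadjusted p under 0.05). A replicate block gave 162 and 13 genes against Sox1-FOXA2+ and the mean, and 8 against Sox1+FOXA2-. Sox1+FOXA2+ and Sox1-FOXA2+ libraries of the same number correlated at -0.119, 0.303 and 0.122 for replicates 1, 2 and 3. Replicates 2 and 3 matched the library of their own number best, and replicate 1 did not. Size factors gave 8 genes against the mean. Leaving out 1 library gave from 10 to 280, from 6 to 62 and from 2 to 16 genes. Halving the counts, also chosen after seeing the data, gave 27, 14 and 5. The log2 fold changes of called genes kept their direction under every alternative, 395 times past the threshold and 166 times not. These genes were picked by the main fit and the alternatives reuse its libraries, so a kept direction is not independent evidence. With 3 libraries per population and 0 to 480 counts of Foxa2 in the double-positive ones, a gene that was not called may still differ.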

Other observations

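Of 12 genes of the RA response 10 were tested, with 0 calls by edgeR and median log2 fold changes of 0.08 against Sox1-FOXA2+ cells (-0.16 without replicate 1) and -0.53 against Sox1+FOXA2- cells. Cyp26a1, which encodes an enzyme that degrades RA, had 5.60, 72.7 and 34.8 CPM in Sox1+FOXA2+ cells and 551, 265 and 112 in Sox1-FOXA2+ cells. The 10 cell cycle genes had medians of -0.13 (0.05 with size factors, 0.01 without replicate 1) and -0.24 (-0.11 without replicate 1), with 0 calls. Immediate early and stress genes had medians of -0.08 (0.09 with size factors, -0.23 without replicate 1) and 0.53 (0.27 without replicate 1) over 13 genes, with 0 calls. Genes of the WNT and TGF-beta pathways had medians of 0.95 and -0.06 (0.15 with size factors, -1.12 without replicate 1) over 17 genes, with 0 calls.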
